A study of Homo sapiens with 11 samples.

Results

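Liver tumours grown from cells with either of 2 NPTX1 hairpins were compared with each other, shNPTX1_4 over shNPTX1_3, across 14130 of the 23327 named genes of the authors' deposited table. A gene entered when its mean over all 11 libraries was at least 38.6 normalized counts (2 CPM, taken on the mean total of the table) and no group mean was 0. No named gene past that level had a group at 0. The difference between hairpins is the log2 ratio of the authors' group means after adding 1 normalized count to each, positive where shNPTX1_4 was higher. Where 3 means of a gene are given together, they are normalized counts in the order shCTRL, shNPTX1_3, shNPTX1_4. The cells were PANC1 LM3, a liver-metastatic line of the third generation derived from PANC1, an established human pancreatic ductal carcinoma line. They expressed a control hairpin (shCTRL, 4 libraries), the NPTX1 hairpin shNPTX1_3 (3 libraries) or the NPTX1 hairpin shNPTX1_4 (4 libraries). In every group the spleen received 500000 cells on day 1, and tumours of the liver were collected on day 21, so the groups share line, route and time. The labels call the libraries biological replicates, without naming the animal, its strain or whether tumours were pooled, and without saying whether a hairpin line was 1 clone.

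A short hairpin RNA is processed into a small RNA that guides the cleavage or repression of messages matching it. Lines carrying different hairpins to a single gene share the target, while each guide can have its own partial matches elsewhere. NPTX1 encodes neuronal pentraxin 1, a secreted protein known from synapses, where it gathers glutamate receptors. The hairpin sequences were not in the sources used here and none is printed.

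NPTX1 itself stood at an authors' mean of 103 normalized counts with the control hairpin, 46.5 with shNPTX1_3 and 38.4 with shNPTX1_4. Both hairpins were therefore below the control mean, and their log2 ratio was -0.27, which is smaller than its rough error of 0.29. The rough error is the standard error of the authors' log2 fold change in the authors' deposited table (7 knockdown over 4 control libraries, DESeq2), scaled by 1.22 to 3 against 4 libraries. It serves as a yardstick without a p-value, and it is too wide for genes that differ between hairpins, because that difference is part of the spread it measures. In shNPTX1_3 the reads of single libraries could be solved for this gene, as described further on, and the 3 libraries held 72.6, 37.2 and 29.6 normalized counts of NPTX1. The shNPTX1_4 mean lies inside that range, and the shNPTX1_3 libraries were themselves spread, with the deepest library above the other two. Without it the shNPTX1_3 mean was 33.4 and the log2 ratio 0.20, so the order of the hairpins in NPTX1 rests on that library.

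Most genes stood at similar levels in tumours of either hairpin. The median log2 ratio was 0.017, the middle 50% of genes lay between -0.17 and 0.19, and 12875 genes (91.1%) were within 1.5-fold. The median rough error was 0.15. At least 2-fold higher in shNPTX1_4 were 122 genes (0.863% of 14130), and 257 genes (1.82%) were at least 2-fold higher in shNPTX1_3. At 1.5-fold the counts were 447 (3.16%) and 808 (5.72%). At least 2 rough errors apart were 3323 of all genes (23.5%) and 367 of the 379 genes 2-fold apart, which were picked on the same ratio. Group means carry no spread of their own, so these are counts of fold and not of tests. Just outside the 2-fold limit lay PSMB8 at -0.9977 and PALLD at -0.9981 (log2 ratio), and just inside it ZMYND10 at -1.001 and DLG3 at -1.001. These 4 genes are named for their place at the limit.

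**Figure D1:**
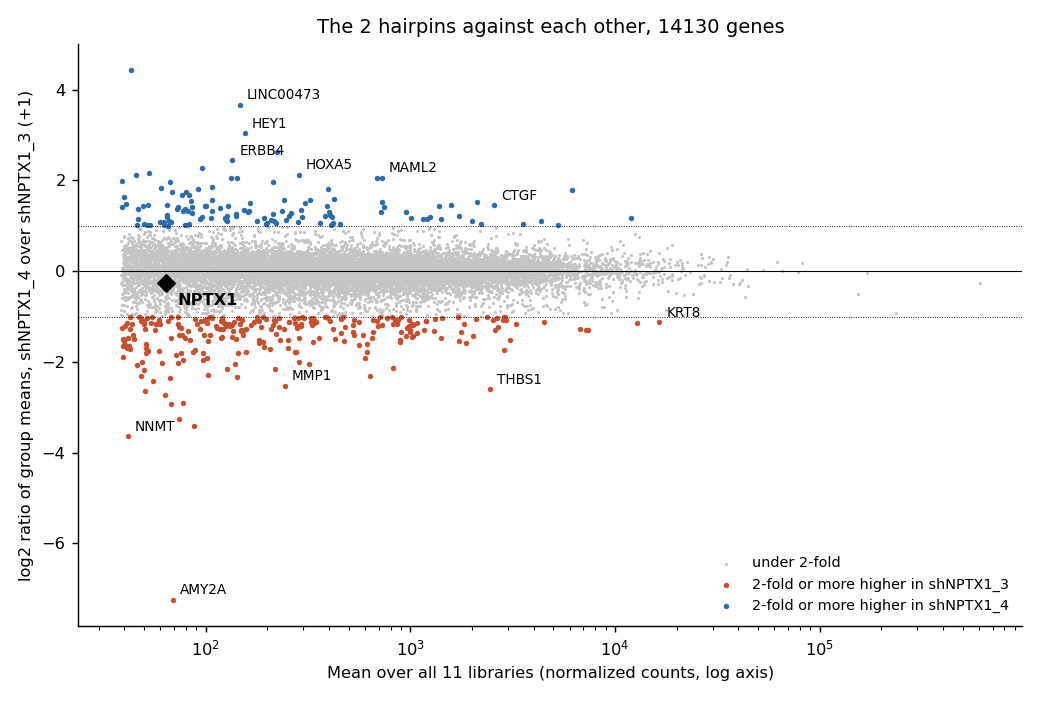
Each point is 1 of 14130 genes, with its mean over all 11 libraries on the x axis (normalized counts, log axis) and the log2 ratio of shNPTX1_4 over shNPTX1_3 on the y axis, with dotted lines at 2-fold. More genes lie below the lower line (257) than above the upper line (122), and NPTX1, the black diamond, lies at -0.27.

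Depth, estimated from the size of 1 read in low means, was 13000000 to 41200000 gene-assigned reads for shCTRL, while shNPTX1_3 had 10800000 to 24000000 and shNPTX1_4 had 16600000 to 26100000. The shNPTX1_3 mean thus rests on fewer and mostly shallower libraries. That deepest shNPTX1_3 library also stood apart in hepatocyte markers, with 102 normalized counts of APOA1 and 80.1 of APOB, against 25.9 and 20.3 of APOA1 and 21 and 7.39 of APOB in the others. The part of these markers in other results was not tested. The group totals differed by a log2 ratio of -0.049 (shNPTX1_4 over shNPTX1_3). Markers of the line were present: keratin 8 (KRT8) stood at 8293, 30512 and 14002 and vimentin (VIM) at 60617, 68672 and 68305.

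The next question was which of the 2 hairpins departed from the control. Over the same 14130 genes, shNPTX1_3 was at least 2-fold above shCTRL at 417 genes (2.95%) and below it at 214 (1.51%). For shNPTX1_4 these counts were 208 (1.47%) and 175 (1.24%). Both sets of ratios use the same 4 control libraries and are given side by side only. Among the 379 genes 2-fold apart between hairpins, shNPTX1_3 alone was at least 2-fold from shCTRL at 150 (39.6%) and shNPTX1_4 alone at 67 (17.7%). Both departed to the same side at 30 genes and to opposite sides at 9, and neither reached 2-fold at 123.

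The share with shNPTX1_3 departing alone was the larger one in both directions. Of the 257 genes higher in shNPTX1_3, it was alone in departing at 110 and shNPTX1_4 was alone at 40. Of the 122 genes higher in shNPTX1_4, the counts were 40 for shNPTX1_3 alone and 27 for shNPTX1_4 alone. The control mean lay between the hairpin means at 149 of the 257 and at 80 of the 122. Genes higher in shNPTX1_3 had a median log2 ratio to control of 1.02 with shNPTX1_3 and -0.40 with shNPTX1_4, and genes higher in shNPTX1_4 had -0.89 and 0.49. In the authors' deposited table, DESeq2 called 4585 of 14126 genes with an adjusted p (32.5%) in the 7 knockdown libraries against control, and among them were 99 of the 257 and 18 of the 122.

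**Figure D2:**
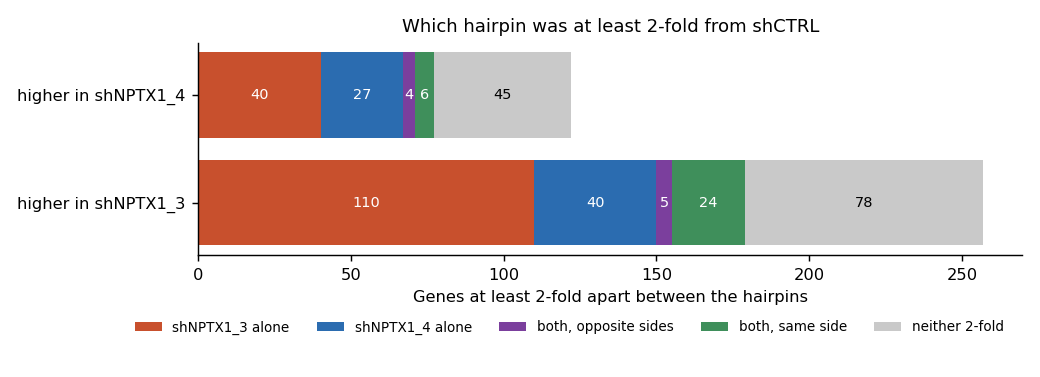
Bars count the genes at least 2-fold apart between hairpins (x axis), split by direction (rows) and by which hairpin was at least 2-fold from shCTRL (colours). The class with shNPTX1_3 alone departing holds 110 of 257 and 40 of 122 genes.

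Among the 15 genes farthest above in shNPTX1_3, several code for enzymes and matrix proteins that act outside the cell. THBS1, the secreted adhesion glycoprotein thrombospondin 1, had an authors' mean of 1364 normalized counts with the control hairpin, 5863 with shNPTX1_3 and 963 with shNPTX1_4. That was a log2 ratio of -2.60 between hairpins, 2.10 for shNPTX1_3 over control and -0.50 for shNPTX1_4 over control. Periostin (POSTN), a matrix protein of stroma and of mesenchymal tumour cells, stood at 38.7, 239 and 21.5. The enzyme NNMT, which methylates nicotinamide inside the cell, stood at 23, 111 and 8.03. For these 3 genes shNPTX1_3 was the high group and shNPTX1_4 was below control.

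The interstitial collagenase MMP1 stood at 31.7 normalized counts with the control hairpin, 689.5 with shNPTX1_3 and 119 with shNPTX1_4, so that both hairpins were above control and shNPTX1_3 5.74-fold above shNPTX1_4. MMP1 was also called in the authors' deposited table (DESeq2 log2 fold change 3.52 with a standard error of 0.74, adjusted p = 3.49e-05). VAV3, a guanine nucleotide exchange factor, stood at 15.8, 193 and 24.5, and EGLN3, an oxygen-sensing prolyl hydroxylase, at 15.5, 125 and 24.2. The log2 ratios to control were 0.60 and 0.61 with shNPTX1_4, and 3.53 and 2.93 with shNPTX1_3.

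A different pattern was seen in MAMDC2, which codes for a secreted proteoglycan, with 872 normalized counts with the control hairpin, 922 with shNPTX1_3 and 184 with shNPTX1_4. Here shNPTX1_3 matched control and shNPTX1_4 was the low group, at a log2 ratio to control of -2.23. GUCY1A3, a subunit of the nitric oxide receptor guanylate cyclase, was likewise lowest in shNPTX1_4, at 111, 180.1 and 35.9. CASP1, the protease that activates interleukin 1 beta, stood at 55.5, 179.5 and 23.2, with shNPTX1_3 above and shNPTX1_4 below control. The other genes of the 15 were AMY2A, SP6, MMP9, THSD1, WISP3 and PLSCR4. Over these 15 genes the log2 difference ran from 2.30 to 7.24 in favour of shNPTX1_3. The control mean lay between the hairpins at 12, and shNPTX1_3 was the hairpin farther from control at 12. Over all 257 genes at least 2-fold higher in shNPTX1_3, these counts were 149 and 165.

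The 15 genes farthest above in shNPTX1_4 included regulators of transcription and signalling. LINC00473, a long noncoding RNA known as a target of cyclic AMP signalling, had an authors' mean of 75.9 normalized counts with the control hairpin, 23.5 with shNPTX1_3 and 309 with shNPTX1_4, a log2 ratio of 3.66 with control in between. HEY1, a transcriptional repressor induced by Notch, stood at 186 normalized counts with the control hairpin, 25.7 with shNPTX1_3 and 219 with shNPTX1_4. For HEY1 the shNPTX1_4 mean was close to control and shNPTX1_3 was low, with log2 ratios to control of 0.23 and -2.81. ERBB4, a receptor for neuregulins, stood at 216, 24.1 and 135 and ADGRL3, an adhesion receptor, at 185, 41 and 174, so that again shNPTX1_3 was the low group.

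PLAGL1, an imprinted zinc finger gene, stood at 179, 61.9 and 387, and HYMAI, the noncoding RNA from the same imprinted locus, at 36.7, 16.6 and 75.5. Both had control between the hairpins, and their RNAs overlap, so reads may be shared between them. The Notch coactivator MAML2 stood at 486, 306 and 1276 and the developmental factor DACH1 at 38, 19.8 and 92.3, both highest in shNPTX1_4 and lowest in shNPTX1_3. The kinase gene FYN stood at 117, 13.7 and 56.6, below control in both hairpins and lowest in shNPTX1_3. COL22A1, HOXA5, LINC00461, CYGB, RORB and RBMS3 complete the 15. Their log2 differences ran from 1.97 to 3.66, and shNPTX1_3 was the hairpin farther from control at 10 of the 15. That is near its share over all 122 genes at least 2-fold higher in shNPTX1_4, where it was farther at 79. DESeq2 called 0 of these 15 in the authors' deposited table and 4 of the 15 on the other side, in a comparison that pools the hairpins. At an unadjusted p under 0.05 these counts were 2 and 4.

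**Figure D3:**
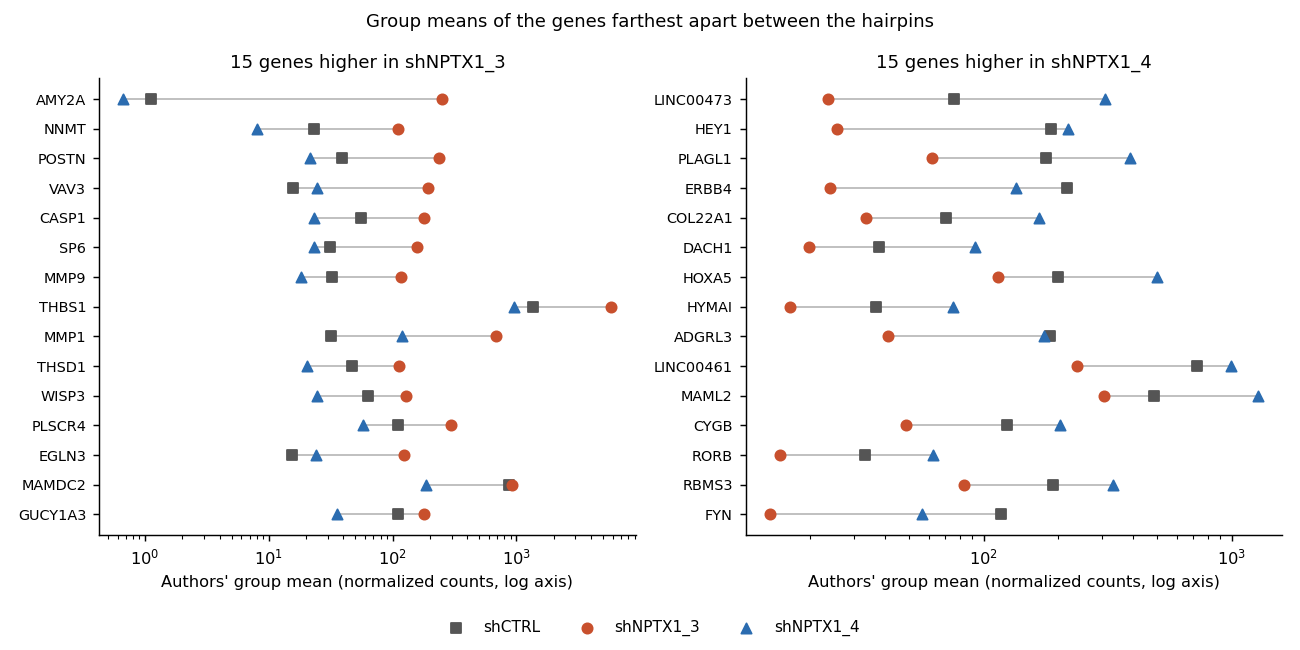
Authors' group means (normalized counts, log axis) of the 15 genes farthest apart in each direction, with shCTRL as squares, shNPTX1_3 as circles and shNPTX1_4 as triangles. The control square lies between the hairpins for 12 of 15 genes in each panel.

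Genes of inflammatory signalling were higher in shNPTX1_3. NF-kB is a family of transcription factors that is held in the cytoplasm by inhibitors such as NFKBIA and, once released, switches on chemokines, adhesion molecules and its own inhibitors. Of 32 members of the NF-kB and cytokine list past the level minimum, 16 were at least 1.5-fold and 6 at least 2-fold higher in shNPTX1_3, against 0 at either fold in shNPTX1_4. The shares of all genes were 5.72% and 1.82% higher in shNPTX1_3, and 3.16% and 0.863% in shNPTX1_4. Their median log2 ratio was -0.62, against 0.017 over all genes. Beside control the list median was 0.47 with shNPTX1_3 and -0.072 with shNPTX1_4, and shNPTX1_3 was the farther hairpin at 25 of 32. The share of all genes with shNPTX1_3 farther from control was not counted.

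Among the secreted ligands, the neutrophil chemokine CXCL8 had an authors' mean of 266 normalized counts with the control hairpin, 1197 with shNPTX1_3 and 386 with shNPTX1_4, CXCL2 of 727, 1565 and 533 and CXCL3 of 83.2, 171 and 82.4. CXCL1, CXCL2 and CXCL3 are close paralogs whose reads counting may split between them. CCL2, which draws monocytes, stood at 3292, 9476 and 4987, with both hairpins above control. PTX3, a long pentraxin of innate defence related to NPTX1, stood at 66.6, 176 and 78.9, and its 3 shNPTX1_3 libraries held 187, 179 and 162 normalized counts, all above the shNPTX1_4 mean.

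The adhesion receptor ICAM1 stood at 2528, 3855 and 1872, the mitochondrial superoxide dismutase SOD2 at 2164, 4397 and 1865 and the ubiquitin ligase BIRC3 at 5038, 10502 and 7445. ICAM1 and SOD2 were 2-fold apart between hairpins with control in between, whereas BIRC3 was above control with both. In log2 units the hairpins differed by -1.63 for CXCL8, -1.55 for CXCL2, -1.24 for SOD2, -1.04 for ICAM1 and -0.50 for BIRC3.

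The DNA just before the start of several of these genes holds one NF-kB core, GGAANTTCC, a palindrome that reads the same on both strands. It was found in the 250 bases before the RefSeq start (GRCh38.p14) of 11 of the 24 list members with a promoter entry, and in 227 of 27305 promoters in all (0.831%). The 11 genes with it had a median log2 ratio of -0.70 and the 13 without it -0.49. The list was chosen to hold NF-kB targets, so its share with the motif is no result of these data. The windows below show the chemokine genes of chromosome 4 and ICAM1, on the strand of each gene, with the motif in capitals.
CXCL8 (chr4:73740453-73740511, plus strand): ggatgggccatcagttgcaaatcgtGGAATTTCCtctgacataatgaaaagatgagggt
CXCL2 (chr4:74099239-74099297, minus strand): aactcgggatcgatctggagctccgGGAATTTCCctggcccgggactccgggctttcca
CXCL3 (chr4:74038734-74038792, minus strand): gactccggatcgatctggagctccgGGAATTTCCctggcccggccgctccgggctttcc
CXCL1 (chr4:73869290-73869348, plus strand): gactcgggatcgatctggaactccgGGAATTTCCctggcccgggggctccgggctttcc
CXCL5 (chr4:73998734-73998792, minus strand): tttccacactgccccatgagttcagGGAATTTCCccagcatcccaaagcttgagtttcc
CXCL6 (chr4:73836564-73836622, plus strand): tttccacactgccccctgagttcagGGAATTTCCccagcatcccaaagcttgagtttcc
ICAM1 (chr19:10270909-10270967, plus strand): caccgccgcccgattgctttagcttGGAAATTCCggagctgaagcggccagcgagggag
All 6 chemokine genes carry the form with T in the centre, at 77 to 91 bases before the start. All 6 were higher in shNPTX1_3, as were 28 of the 32 list members. CXCL1, CXCL2 and CXCL3 share most of the letters around it, as do CXCL5 and CXCL6. Besides those given above, the log2 ratios were -0.70 for CXCL1, -0.70 for CXCL5 and -0.54 for CXCL6. A higher mean in shNPTX1_3 than in shNPTX1_4 was not always a rise over control. In the authors' deposited table CXCL5 was lower with knockdown (DESeq2 log2 fold change -1.09, adjusted p = 5.07e-08). CXCL1 and CXCL6 were not called there, at 0.23 and -0.20. REL and NFKB1 carry the motif too, with log2 ratios of 0.14 and -0.34. CXCL1, CXCL5, CXCL6, REL and NFKB1 are named for the motif.

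Interferon-stimulated genes were also higher in shNPTX1_3. Interferons act through STAT and IRF factors on genes that restrict viruses and display antigen. Of 39 members past the level minimum, 20 were at least 1.5-fold (5.72% of all genes) and 7 at least 2-fold (1.82% of all genes) higher in shNPTX1_3, against 0 and 0 in shNPTX1_4, with a median log2 ratio of -0.59. The list median lay on either side of control, at 0.35 with shNPTX1_3 and -0.29 with shNPTX1_4. Of the guanylate-binding GTPases, GBP2 stood at 46.5, 156 and 37.8, GBP1 at 63.6, 149.8 and 37.6 and GBP3 at 204, 579 and 275. The 3 shNPTX1_3 libraries held 164, 146 and 139 normalized counts of GBP1, a narrow range far above the shNPTX1_4 mean.

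The antiviral genes TRIM22 (34, 69.2 and 23.1), ISG20 (109.8, 197 and 85.4) and SAMD9L (164, 489 and 221) were each at least 2-fold apart, and IFIH1 was the remaining one. PARP14, the member with the highest count, differed by -0.72.

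MHC class I molecules present peptides that the immunoproteasome cuts and the TAP transporter loads. No member of the 17 was 2-fold apart, and 8 were at least 1.5-fold higher in shNPTX1_3 (5.72% of all genes) and 0 in shNPTX1_4, with a median of -0.45. The immunoproteasome subunit PSMB8 stood at 302, 674 and 337, its partner PSMB9 at 359, 601 and 354, the peptide trimmer ERAP2 at 1202, 2824 and 1433, HLA-B at 1725, 2229 and 1253 and the light chain B2M at 7045, 13063 and 7551. HLA genes are near-identical copies of one another, and their counts are uncertain. The chaperones CALR and PDIA3, which also serve general folding, differed by 0.15 and -0.12.

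The interferon response element has a core of 2 GAAA blocks with any 2 bases between them, searched here on both strands. In the 250 bases before the start it was present in 16 of 28 interferon list members with a promoter entry, 6 of 13 MHC class I members, and 839 of 27305 promoters in all (3.07%). The lists were chosen by function, so these shares are no result of these data. Interferon list members with the core had a median log2 ratio of -0.68 and the others -0.27, whereas for MHC class I the medians were -0.56 and -0.76, so the order was not shared by the lists. The windows show 4 interferon genes and B2M on the strand of each gene, with the core in capitals.
GBP1 (chr1:89065301-89065360, minus strand): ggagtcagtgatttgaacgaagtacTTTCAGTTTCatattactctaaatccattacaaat
ISG20 (chr15:88638922-88638981, plus strand): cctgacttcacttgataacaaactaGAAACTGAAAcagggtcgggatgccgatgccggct
DDX60 (chr4:168318771-168318865, minus strand): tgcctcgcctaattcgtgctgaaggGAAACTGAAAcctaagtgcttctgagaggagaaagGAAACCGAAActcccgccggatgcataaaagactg
IFIT1 (chr10:89392482-89392554, plus strand): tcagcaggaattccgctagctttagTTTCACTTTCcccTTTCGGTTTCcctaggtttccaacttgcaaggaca
B2M (chr15:44711348-44711413, plus strand): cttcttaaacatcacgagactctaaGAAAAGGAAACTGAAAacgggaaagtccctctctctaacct
GBP1 and IFIT1 hold the core on the opposite strand, as TTTC blocks. DDX60 and IFIT1 hold it at 2 places, and in B2M a pair of cores overlap. The log2 ratios of the genes shown were -1.97 for GBP1, -1.20 for ISG20, -0.86 for DDX60, -0.70 for IFIT1 and -0.79 for B2M. DDX60 and IFIT1 are named for the motif.

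Matrix and mesenchymal genes formed another group higher in shNPTX1_3. Of 24 mesenchymal genes, 12 were at least 1.5-fold (5.72% of all genes) and 10 at least 2-fold (1.82%) higher in shNPTX1_3, and 0 in shNPTX1_4, with a median of -0.60. Of the matricellular proteins, SPARC had authors' means of 6284, 12151 and 4961 and tenascin C (TNC) of 4167, 13596 and 5544. FSTL1, a secreted glycoprotein, stood at 2274, 5314 and 1587, the microfibril protein FBN1 at 106, 481 and 198 and the mesenchymal cadherin CDH11 at 43.6, 91.6 and 22. TNC and FBN1 were above control with both hairpins, while SPARC, FSTL1 and CDH11 were above it with shNPTX1_3 and below it with shNPTX1_4. Vimentin, the member with the highest count, differed by -0.0077 (log2), and the hyaluronan receptor CD44, at 20820.2, 31277 and 22019.9, by -0.51.

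The collagen list, which does not hold every collagen, had 5 of 22 genes at least 2-fold (1.82% of all genes) and 9 at least 1.5-fold (5.72%) higher in shNPTX1_3, and 0 in shNPTX1_4, with a median of -0.44. Outside the list, COL22A1 was higher in shNPTX1_4, at 70.8, 33.6 and 167. Within it, the farthest apart was COL5A1, a fibril collagen, at 1172, 1469.8 and 534, where the departing hairpin was shNPTX1_4, at -1.13 (log2) from control. Of the basement membrane collagens, COL4A1 at 1250.0, 1429 and 651 and COL4A2 at 1954, 2254 and 1168 were also low in shNPTX1_4, whereas COL18A1, at 15639, 11871 and 16155, was lowest in shNPTX1_3. COL3A1, in contrast, was 731, 5517 and 2247, above control with both hairpins and highest in shNPTX1_3. COL7A1, the anchoring fibril collagen, was 1542, 2883 and 1133. COL5A2, which pairs with COL5A1 in fibrils, was 4004, 14502 and 13313, so the partner chains differed in pattern.

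Of 18 matrix proteases and inhibitors, 3 were at least 2-fold (1.82% of all genes) and 7 at least 1.5-fold (5.72%) higher in shNPTX1_3, and 0 in shNPTX1_4. The 3 were MMP1, MMP9 and MMP24. MMP24, a membrane protease, stood at 69.9, 118 and 49, with 128, 122 and 104 normalized counts in the 3 shNPTX1_3 libraries. The protease inhibitor TIMP2 was low with both hairpins, at 1414, 416 and 267. The sheddases ADAM9 and ADAM10 differed by 0.001 and 0.025 (log2).

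Keratins and S100 proteins had the lowest medians of the function lists, -0.77 and -0.85. The keratins of simple epithelia form paired filaments, with KRT8 as the partner of KRT18. KRT8 stood at 8293, 30512 and 14002, KRT18 at 5877, 16989 and 9450.4 and KRT19 at 1272, 8180.5 and 4803, all above control with both hairpins and highest in shNPTX1_3. KRT16, a keratin of stressed epidermis, was low in shNPTX1_4 instead, at 47.7, 59.6 and 18.6. Of 9 S100 genes, which code for small calcium-binding proteins, 6 were at least 1.5-fold higher in shNPTX1_3 (5.72% of all genes) and 0 in shNPTX1_4. S100A6 stood at 11111, 28841 and 15973, S100A4 at 857, 4176 and 2222 and S100A13 at 556, 1207 and 529. S100A4 and S100A6 were above control with both hairpins and S100A13 with shNPTX1_3 only, by fold.

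Epithelial junction genes did not share a direction. Of 23, 4 were at least 2-fold higher in shNPTX1_3 (1.82% of all genes) and 1 in shNPTX1_4 (0.863%). E-cadherin (CDH1) stood at 247, 619.8 and 210.0, P-cadherin (CDH3) at 151, 403 and 155, the tight junction claudin CLDN1 at 148, 739.9 and 177 and the desmosomal PKP3 at 146, 282 and 134, and in each the shNPTX1_4 mean was near control. Cingulin (CGN), a tight junction plaque protein, went the other way at 82.7, 25.1 and 86.1, with 30.1, 25.9 and 19.4 normalized counts in the shNPTX1_3 libraries, all far below the shNPTX1_4 mean. Desmoplakin (DSP) was low with both hairpins and differed by -0.32 (log2).

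Genes of several growth pathways were apart as well. In the TGF-beta, activin and BMP list of 31, 5 genes were at least 2-fold higher in shNPTX1_3 (1.82% of all genes) and 1 in shNPTX1_4 (0.863%). GDF15, a stress-induced member of the family, stood at 105, 314 and 90.6, the matrix target TGFBI at 2272, 5626 and 1960.0 and the coreceptor TGFBR3 at 442, 900.2 and 338. Also among the 5 were ID4 (59.4, 44.5 and 15.2) and SMAD6 (151, 183 and 80.3), where shNPTX1_4 was the hairpin farther from control. The 1 gene higher in shNPTX1_4 was CTGF, a matricellular target of TGF-beta and YAP. It stood at 1825 normalized counts with the control hairpin, 1494 with shNPTX1_3 and 4097 with shNPTX1_4, and shNPTX1_4 was the departing group. The receptor-activated SMAD3 and the receptor BMPR2 differed by -0.087 and -0.23.

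Among 31 growth factors and receptors, 4 were at least 2-fold higher in shNPTX1_3 (1.82% of all genes) and 2 in shNPTX1_4 (0.863%). The 4 were all ligands: placental growth factor (PGF, 267, 645 and 232), VEGFA (1574, 5126 and 2412) and the EGF receptor ligands HBEGF (641, 1839 and 805) and EREG (379, 1393 and 683). The 2 were receptors, ERBB4 and IGF1R, the latter at 1109, 696 and 1547. EGFR itself was 3157, 3848 and 5283, a log2 ratio of 0.46. VEGFA also belongs to the hypoxia list, of whose 29 members 4 were at least 2-fold higher in shNPTX1_3 (1.82% of all genes) and 0 in shNPTX1_4. Those 4 were EGLN3, VEGFA, the lipase inhibitor ANGPTL4 (863, 2365 and 946) and the mTORC1 inhibitor DDIT4 (3027, 3889.5 and 1916). At 1.5-fold, 10 members were higher in shNPTX1_3 (5.72% of all genes) and 2 in shNPTX1_4 (3.16% of all genes). Among the latter was the secreted glycoprotein STC2 (389, 289 and 554). The hypoxia median was above control with both hairpins, at 0.53 with shNPTX1_3 and 0.22 with shNPTX1_4.

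The p53 list of 22 held 2 genes at least 2-fold higher in shNPTX1_3 (1.82% of all genes), GDF15 and CDKN1A, and 6 at least 1.5-fold higher (5.72% of all genes), with 0 at either fold in shNPTX1_4. CDKN1A, the inhibitor of cyclin-dependent kinases p21, stood at 887, 1398 and 547, with control between the hairpins. The growth arrest gene GADD45A was 942, 3236 and 1627 and the death receptor FAS was 677, 1074 and 616. MDM2, the ligase that degrades p53, differed by -0.19.

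Cell cycle genes were slightly higher in shNPTX1_4. Of 44 genes of replication and mitosis, 41 had a higher mean in shNPTX1_4 and 3 in shNPTX1_3, with a median log2 ratio of 0.28. Over all genes, 7422 of 14130 had a higher mean in shNPTX1_4. Differences in the list were small: 3 genes were at least 1.5-fold higher in shNPTX1_4 (3.16% of all genes), 0 in shNPTX1_3, and 0 were 2-fold apart. The proliferation marker MKI67 stood at 14460.1, 6978 and 10479.7, the kinetochore protein CENPF at 19766, 14429.7 and 21551, topoisomerase TOP2A at 13940.3, 11505 and 13981 and the mitotic phosphatase CDC25C at 273, 183 and 336. MKI67 was thus below control with both hairpins. Over the list, control lay between the hairpins, since the list median was -0.12 with shNPTX1_3 and 0.16 with shNPTX1_4. A set chosen after values were seen, the replication-dependent histones of the HIST1 cluster, had higher means in shNPTX1_4 at 42 of 42 members past the level minimum, with a median of 0.49. HIST1H1C stood at 3725, 3270.0 and 4908 and HIST1H2BD at 4445, 3528 and 4904. For histones the shNPTX1_3 median was near control (-0.018) and that of shNPTX1_4 was 0.47. Many histone messages lack a poly(A) tail, and histone genes are near-identical copies, so these counts are uncertain and their dependence on the selection of RNA was not tested.

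HEY1 and MAML2, of the Notch list, were among the genes farthest apart, both higher in shNPTX1_4. In Notch signalling a ligand on 1 cell frees the receptor's inner part in its neighbour, which joins a MAML coactivator to induce HES and HEY repressors. The ligand JAG1 stood at 4760.3, 5331 and 3519.7, the receptor NOTCH1 at 662, 487 and 697, NOTCH2 at 7197, 7252 and 7834, and the target HES1 at 4954, 4296 and 4638. None of these was 1.5-fold apart but JAG1, and the list median was 0.068. MFNG, a glycosyltransferase that modifies Notch, was higher in shNPTX1_3, at 42.6, 94.5 and 49.9.

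The HOXA cluster, also singled out after values were seen, had 4 members past the level minimum. All 4 were at least 2-fold higher in shNPTX1_4 (0.863% of all genes), and their median rough error was wide, at 0.62. Of 11 HOXA genes, 5 were under 10 normalized counts in every group. HOX genes are transcription factors of body position that lie in clusters and are often regulated together. HOXA5 had authors' means of 198, 114 and 499, HOXA3 of 132, 63.9 and 173 and HOXA2 of 77, 41.6 and 108. The shNPTX1_3 libraries held 135, 129 and 77.6 normalized counts of HOXA5 and 54.3, 48 and 22.6 of HOXA2, all below the shNPTX1_4 means. The control lay between the hairpins for each of these 3 genes. The 8 HOXC members past the minimum had higher means in shNPTX1_4 too, with a median of 0.56. Of 9 HOXB members 7 did, with a median of 0.20, against 7422 of all 14130 genes.

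Other functions were nearly level between the hairpins. The median log2 ratio was -0.070 over 39 respiratory chain genes, 0.047 over 41 ribosomal proteins, -0.084 over 24 genes of cholesterol synthesis and -0.046 over 22 ER chaperones, and in these lists 1 gene was 2-fold apart. That gene was NDUFA2, a subunit of complex I, at 237, 126 and 316, and it is named because it was the only one. The small RNA machinery list had a median of 0.16 over 14 genes. Of these, 13 were higher in shNPTX1_4 (7422 of all 14130 genes) and 2 by at least 1.5-fold (3.16% of all genes). The 2 were TNRC6C and the RNA editing enzyme ADAR. TNRC6C, which works with Argonaute in silencing, was 297, 142 and 281, ADAR 6305, 2869 and 4351, DICER1 2815, 2885 and 3667 and AGO2 1814, 1503 and 1705. Of 21 neuronal genes, the functional class of NPTX1, 1 was 2-fold higher in shNPTX1_4, the synaptic vesicle protein SYP at 192, 131 and 286, and 0 in shNPTX1_3, near the shares of all genes (0.863% and 1.82%). NPTX2, the nearest relative of NPTX1, was 76.8, 115 and 59.5.

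**Figure D4:**
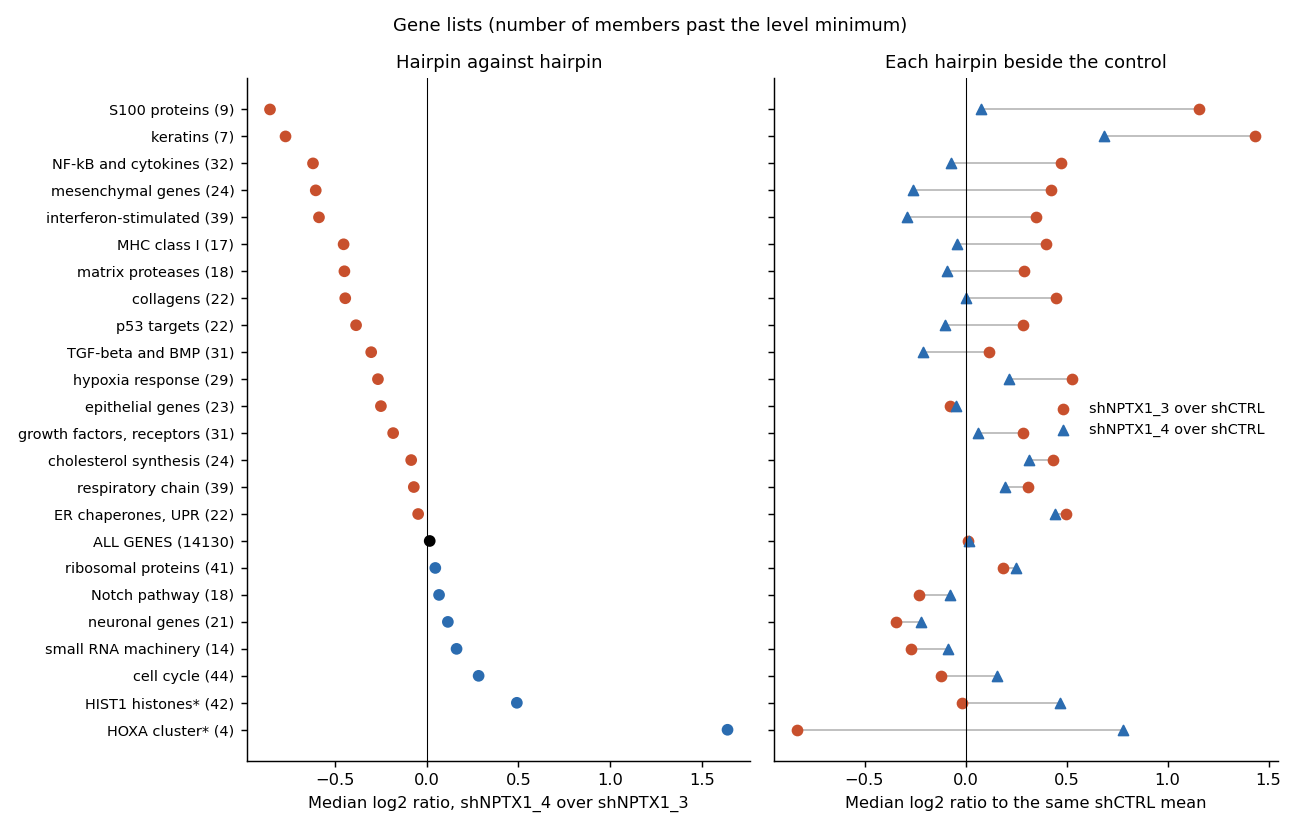
Left, the median log2 ratio of shNPTX1_4 over shNPTX1_3 for each gene list (members past the level minimum in brackets), and right, the medians of each hairpin over the shared shCTRL mean, with circles for shNPTX1_3 and triangles for shNPTX1_4. Lists marked with an asterisk were chosen after values were seen. The medians ran from -0.85 for S100 proteins to 1.64 for the HOXA cluster.

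Markers of other cell types were summed for each group, since bulk tumour RNA cannot tell fewer cells of a type from less RNA per cell. The 13 fibroblast and stellate cell markers summed to 3077, 7479.55 and 3951, of which COL3A1 gave 731, 5517 and 2247 and THY1 1222, 859.6 and 383, while the defining markers DCN, PDGFRB, DES and FAP were each under 10 in every group. The 19 leukocyte markers summed to 1047, 1132 and 899.9, of which the lysosomal CD68 gave most, with CD3E, TYROBP, NKG7, GZMB and HLA-DRA under 2. The 22 hepatocyte markers summed to 473, 649 and 388, with albumin (ALB) under 1 in every group, and APOA1 and APOB came mostly from the deepest shNPTX1_3 library. The 14 endothelial markers summed to 856, 760.3 and 684. Fibroblast, leukocyte and hepatocyte sums were thus highest in shNPTX1_3, as were the matrix and inflammatory lists. The fibroblast order rests on COL3A1, which is also in the collagen list, since the other fibroblast markers together were highest in control. With fibroblast, leukocyte and acinar markers left out of the lists, the medians were -0.62 for NF-kB, -0.44 for collagens and -0.45 for mesenchymal genes. RNA of such cells in the remaining genes was not tested.

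Some acinar enzymes of the pancreas stood out in shNPTX1_3. Of 19 acinar markers, 8 were under 10 normalized counts in every group and 3 passed the level minimum. Of these 3, 1 was at least 2-fold higher in shNPTX1_3 (1.82% of all genes) and 1 had a higher mean in shNPTX1_4. CPB1 and PLA2G1B had 0 reads in all 3 shNPTX1_3 libraries. AMY2A, pancreatic amylase and the gene farthest apart of all, had authors' means of 1.12 normalized counts with the control hairpin, 251 with shNPTX1_3 and 0.668 with shNPTX1_4. Below the level minimum the trypsinogen PRSS1 was 1.02, 46.1 and 0.909, carboxypeptidase CPA1 1.62, 40.9 and 0 and elastase CELA3A 0, 20 and 0.185. The 3 shNPTX1_3 libraries held 51.7, 8.35 and 0 normalized counts of CELA3A, so its group mean came mostly from 1 library. AMY1A was more even, at 42, 31.7 and 16.6. Single libraries could not be solved for AMY2A. AMY2A and other amylase genes are near-identical copies. The acinar list was chosen after its values were seen, and its part in other differences was not tested.

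Single libraries could be read from part of the table. A group mean is a sum of whole reads, each weighted by its library, and with the weights found from the lowest means 41.7% of the shNPTX1_3 means from 5 to 300 normalized counts had exactly 1 solution, as did 50.6% of the shNPTX1_4 means from 5 to 30. Among values shifted off the lattice the shares were 0.359% and 0.73%. The remaining genes were not sums of whole reads at these weights, for a reason not given in the sources used here. The libraries cannot be tied to replicate numbers, and this reading was added after the data were seen.

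For 14 genes 2-fold apart both hairpins were solved. Each of them had to be low in shNPTX1_4 to be solved, so their direction and number say nothing of the other genes, but their libraries show the spread behind a group mean. MMP9, the gelatinase, held 148, 106 and 98.6 normalized counts in the shNPTX1_3 libraries and 21.6, 18.6, 16.7 and 15.5 in those of shNPTX1_4. The nerve growth factor receptor NGFR held 100.3, 96 and 90.5 against 27.5, 18.5, 18.2 and 17.4, and KRT16 held 65.9, 62.8 and 50.1 against 23.7, 20.4, 18.7 and 11.6. None of these 3 genes overlapped between hairpins, which the choice of genes 2-fold apart largely fixes.

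The thyroid and foregut factor FOXE1 held 81, 71.2 and 62.8 against 23.7, 21.6, 18.6 and 17.7, with control at 70.1, so that shNPTX1_4 was the hairpin away from control. CYP27A1, the sterol 27-hydroxylase, held 86.8, 77.6 and 64.7 against 30.2, 28.1, 24.5 and 23.8, both below the control mean of 101. The gastric mucin MUC6 held 77.6, 64.3 and 48 against 51.2, 26.6, 23.8 and 13.7, and 1 shNPTX1_4 library lay above the lowest of shNPTX1_3. It was the only overlap among the 14, the others being PTN, GMPR, UCN2, ID4, BST1, TEX15, PCDHB7 and PRSS22.

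A limma test with trend, on log2 of the recovered values plus 1, was fitted over 849 solved genes with a hairpin mean of at least 10. No p-value is given for the 14 genes, because they were picked on the means that the libraries rebuild. The p-values measure only the spread between these libraries. An exact permutation test of 3 against 4 libraries cannot give a two-sided p below 0.0571.

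Solved genes with both hairpin means from 5 to 30 do not carry that one-sided limit, and all but 2 lie below the level minimum. Of 734 such genes, 44 had every shNPTX1_3 library above every shNPTX1_4 library (5.99%) and 47 the reverse (6.4%). The limma test called 9 higher in shNPTX1_3 (1.23%) and 3 higher in shNPTX1_4 (0.409%). Its p-values were adjusted over all 849 genes, of which 59 were called, 55 of them higher in shNPTX1_3. Genes that carry the one-sided limit thus bear on these adjusted p-values, and adjustment over the 734 alone was not run. The 3 were HOXD4 at a log2 ratio of 1.60 ± 0.39 (SE, limma adjusted p = 0.0232), HOXC12 at 2.46 ± 0.68 (limma adjusted p = 0.04) and FGFBP3, which codes for a carrier of fibroblast growth factors, at 1.31 ± 0.38 (limma adjusted p = 0.0445). They are named because they were so few. The leukocyte gene LAPTM5 was among the 9, at -1.33 ± 0.37 (limma adjusted p = 0.0396), and is named as a marker of another cell type.

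**Figure D5:**
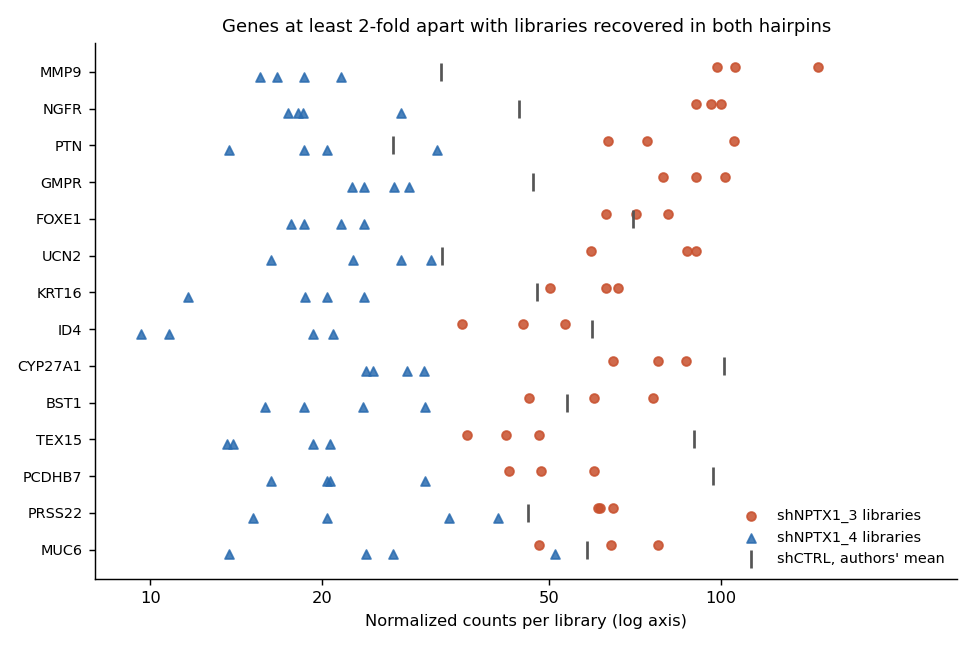
Normalized counts per library (log axis) of the 14 genes at least 2-fold apart that were solved in both hairpins, with circles for the 3 shNPTX1_3 libraries, triangles for the 4 shNPTX1_4 libraries and a bar for the authors' control mean. Circles and triangles overlap in MUC6 and not in the other 13 genes, which were picked for a 2-fold difference. Among the 734 solved genes with both means from 5 to 30, 5.99% and 6.4% did not overlap.

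The shNPTX1_3 libraries alone were solved for 1912 of the 14130 genes. At the 937 with a mean of at least 100, the highest library was a median of 1.37 times the lowest, and 2.04 times at the ninetieth percentile. Of the 379 genes 2-fold apart, 68 were solved in shNPTX1_3, 44 of them higher in shNPTX1_3 and 24 higher in shNPTX1_4. Of these 68, 64 stayed 2-fold apart without the deepest library, 60 without the second deepest and 63 without the shallowest. Over all 1912, the genes 2-fold higher in shNPTX1_4 went from 24 to 39 without the second deepest library, which was also the one highest in CELA3A. The readthrough gene POC1B-GALNT4 had 244, 160.3 and 0 normalized counts. Uneven libraries were also seen for neurotensin (NTS), a gut peptide higher in shNPTX1_4, at 392, 139 and 136. The nerve growth factor-inducible peptide VGF was even, at 137, 129 and 120.2, against a shNPTX1_4 mean of 369 and a control mean of 376. POC1B-GALNT4, NTS and VGF were chosen after their values were seen.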

How the data were processed

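The 11 RNA-seq libraries of liver tumours were summarised by the authors in 1 deposited table. According to the submitters' processing notes, the authors used STAR (2.7.6a), featureCounts (2.0.0) and DESeq2 (1.24), with MultiQC (1.9) and the builds hg19 and mm39. Strand setting, annotation and treatment of mouse reads were not given in the sources used here. Per the file headers, the group means in the authors' deposited table are a signal: means, per group, of counts scaled by size factors. Its log2 fold changes with standard errors, the Wald score and the p-value columns are the authors', taken to be those of DESeq2 (knockdown over control).

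Of 23434 rows, 107 were left out (79 without a name, 26 named by a date, 2 repeated; 0.387% of normalized counts). Log2 ratios of group means used a pseudocount of 1 and so shrink low genes. A gene counted as apart at 2-fold. Because the values are group means, no count test was run, and there is no SD or test per gene from the table. Group means weigh deep and shallow libraries alike, so the shallow ones set much of the error. Whole reads of single libraries were solved from low group means and tested with limma 3.58.1, with Benjamini-Hochberg adjustment. Both steps were tested on simulated data. Intervals are not given, since reads of most libraries are unknown.

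The members and gene lists were chosen with earlier results of these data known. Named genes are NPTX1, the 15 with the largest ratio in each direction that are also at least 2 rough errors apart, and from each list up to 6 with the largest difference and up to 2 with the highest mean; a few of these are not reported here. Promoter sequences are RefSeq's (GRCh38.p14), matched by symbol, 1 start per gene. Alternatives covered the pseudocount, scaling, level minimum, fold limit, rows left out and, for solved genes, each shNPTX1_3 library. Analyses used Python 3.11.15 with numpy 2.4.6, pandas and matplotlib.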

Additional observations from a re-analysis of the deposited data

Results flagged for a closer look

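In the 4 solved shNPTX1_4 libraries of NGFR, the nerve growth factor receptor, 1 library stood apart from the others. It held 27.5 normalized counts against 18.5, 18.2 and 17.4, so that the gap to its nearest neighbour was 0.894 of the whole range. All 4 values were below the 3 shNPTX1_3 libraries. It was 1 of 16 sets of values checked, and a gap past the limit used for flagging appears in about 1 in 20 sets of 4 with nothing behind it.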

How the results depend on the processing

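The counts of genes, the ratios of the 161 named genes (110 at 10 CPM) and the list medians were recomputed under 7 alternatives (pseudocounts 0.1 and 10, equal group totals, centred medians, level minimums of 1 and 10 CPM, all rows kept). None of these was reversed, and 0 of the ratios moved by more than their rough error. Counts within lists, motif shares and marker sums were not recomputed. Of the 2-fold genes, 137 and 223 were higher in shNPTX1_4 and shNPTX1_3 with equal totals, and 117 and 269 with centred medians. At 10 CPM fewer genes are tested. Then 53 genes were 2-fold higher in shNPTX1_4 and 127 in shNPTX1_3. Against control 264 were higher and 84 lower with shNPTX1_3, and 114 higher and 53 lower with shNPTX1_4. The classes held 78 with shNPTX1_3 alone departing, 28 with shNPTX1_4 alone, 1 on opposite sides, 15 on the same side and 58 with neither. With pseudocount 10, 2 were on opposite sides. At a departure of 1.5-fold, 42 were on opposite sides, 65 on the same side and 5 had neither departing. At 1.5-fold, 447 and 808 genes were higher in shNPTX1_4 and shNPTX1_3, and at 4-fold 13 and 27. Against control, 1246 were higher and 1100 lower with shNPTX1_3 at 1.5-fold, and 656 and 675 with shNPTX1_4. At 4-fold these were 70, 15, 27 and 19. At 10 CPM the list medians were -0.047 for cadherins, -0.27 for complement, -0.33 for metallothioneins and -1.17 for fibroblast markers, and at 1 CPM -0.13 for fibroblast and -0.40 for acinar markers, since other genes then enter. Leaving fibroblast, leukocyte and acinar markers out of the other lists, an alternative chosen after seeing the data, moved the mesenchymal median to -0.45 and every other list median by less.

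No paired analysis was possible because the table holds group means and the solved libraries carry no replicate number. For the same reason the replicate block, leaving out each replicate (beyond the shNPTX1_3 libraries of solved genes, added after seeing the data, where NPTX1 went to 0.20, -0.40 and -0.50) and the edgeR and DESeq2 tests between hairpins were not run. Depth limits the genes near the level minimum most.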
